A study of Arabidopsis thaliana with 14 samples.

Results

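The loci described here are Arabidopsis genes that drought lowered in wild-type leaves while the mutant line camta5 changed little. They were chosen from measured values. A locus was taken where its probe set named 1 gene known only by its locus number, where the drought mean of Col-0 lay 1.5 or more below its water mean on the log2 scale with every Col-0 drought array below every Col-0 water array, and where the drought difference of camta5 was above -0.5. AT3G02840 was left out by the rule. Of 11932 such probe sets, 16 met it, each for a different locus, among 22810 probe sets on the array. All values are group means of log2(signal + 16), where the signal is a linear hybridisation intensity, and a difference of 1 on that scale is a doubling of signal + 16.

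Leaves were taken from plants 1 month old, and each of 14 ATH1 arrays held the RNA of 1 sample. The groups were the CAMTA5 overexpression line OX-5 (written OX5 here) after 14 days of drought (2 arrays), the mutant line camta5-a (written camta5) after 14 days of drought (3 arrays) and with water (3 arrays), and wild-type Col-0 after 14 days of drought (3 arrays) and with water (3 arrays). Both lines have the Col-0 background. A watered OX5 group was not analysed here, and the promoter that drives the overexpression, the lesion of camta5-a and the number of plants behind each sample are not given in the sources used here. The labels call the replicates biological without saying whether they came from separate plants, so p-values measure the spread between these samples.

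CAMTA proteins are transcription factors that bind calmodulin, the calcium sensor of the cell, and so link calcium signals to gene activity. They are known to recognise short CGCG-containing DNA elements and are best studied in cold, wounding and defence responses of Arabidopsis. In drought a leaf commonly turns up genes of water-stress protection and turns down many genes of growth, cell wall extension and photosynthesis. A locus that falls in the wild type and changes little in a regulator mutant marks a response that differed by line in these samples. Whether the regulator acts on the locus is a separate question that these arrays do not address.

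Some arrays need care. For camta5 water replicate 1 the labels conflict: the genotype entry gives wild type while the title gives camta5, and the title was followed. CAMTA5 (AT4G16150) had signals of 402 and 290 on the OX5 arrays, 265 to 306 in camta5 drought and 154 to 191 in camta5 water. It was at 146 to 232 in Col-0 drought and 115 to 179 in Col-0 water. There was thus no drop on the arrays labelled camta5, and in drought all of these were above every Col-0 array. OX5 drought replicate 2, at 290, lay within the camta5 drought range. The position of the lesion in the gene is not given. The OX5 arrays stood apart, with Spearman coefficients of 0.805 to 0.865 with the other 12 arrays, against 0.896 to 0.960 among those. Of the fixed leaf mesophyll markers 3 of 8 were measured and all were high, with RCA (Rubisco activase) at 28324 to 41941 over the 14 arrays. PSBY, a photosystem II gene, was at 17909 to 18743 in OX5 drought, 8457 to 14834 in camta5 drought, 19800 to 22173 in camta5 water, 5597 to 11258 in Col-0 drought and 19184 to 24511 in Col-0 water. PSAN, a photosystem I gene, was at 13468 to 15555 in OX5 drought, 10322 to 12829 in camta5 drought, 19435 to 21051 in camta5 water, 7619 to 13737 in Col-0 drought and 17179 to 21707 in Col-0 water. In both camta5 and Col-0 every droughted array was thus below every watered one for these 2 markers, and their part in the results was not tested. Of the fixed markers of other cell types only FAMA (guard cells, 1 of 3) and TRY (trichomes, 1 of 3) were measured, at 110 to 376 and 27.9 to 450. TRY was at 27.9 and 158 in OX5 drought, 147 to 336 in camta5 drought, 348 to 450 in camta5 water, 127 to 218 in Col-0 drought and 332 to 434 in Col-0 water, so that in both lines every droughted array was lower than every watered one, and its part in the results was not tested. Markers of phloem, xylem, dividing cells, root epidermis and seed were not measured by 1-gene probe sets. In bulk leaf RNA fewer cells of a type and less RNA per cell cannot be told apart.

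The 16 loci were chosen by their values, and whether they share a pathway was not examined. Each was matched to a protein-coding gene in the RefSeq table, but only AT5G64120 carried a descriptive name there, peroxidase 71 (PRX71). Class III peroxidases of this kind are secreted plant enzymes that use hydrogen peroxide and act on the polymers of the cell wall. No name or role is given to the other 15 loci here. No locus had a second probe set. AT5G64120 and AT5G64190 lay near each other, with 6 protein-coding genes between them in the RefSeq order, and AT5G24210 and AT5G24570 had 42 between them. Among the directly adjacent genes 15 were measured, with a median Col-0 difference of -0.47 and 2 at -1.5 or less.

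Among loci lowered this way in Col-0, a camta5 difference above -0.5 was rare. In all, 209 probe sets of number-only loci met the Col-0 part of the rule. The 16 made up 7.66% of these, while 98 had a camta5 difference between -1.5 and -0.5 and 95 one of -1.5 or less. For genes that carry a symbol the same thresholds took 4 of 64 (6.25%). These, named after their values were seen, were ASPGB1 (an asparaginase), EXO (EXORDIUM, a brassinosteroid-induced growth gene), IAGLU (a glucosyltransferase of the auxin indole-3-acetic acid) and KOM (a rhomboid-like protease). The plot of drought differences shows that the 16 loci sit at the upper edge of a continuous cloud and do not form a separate group.

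**Figure D1:**
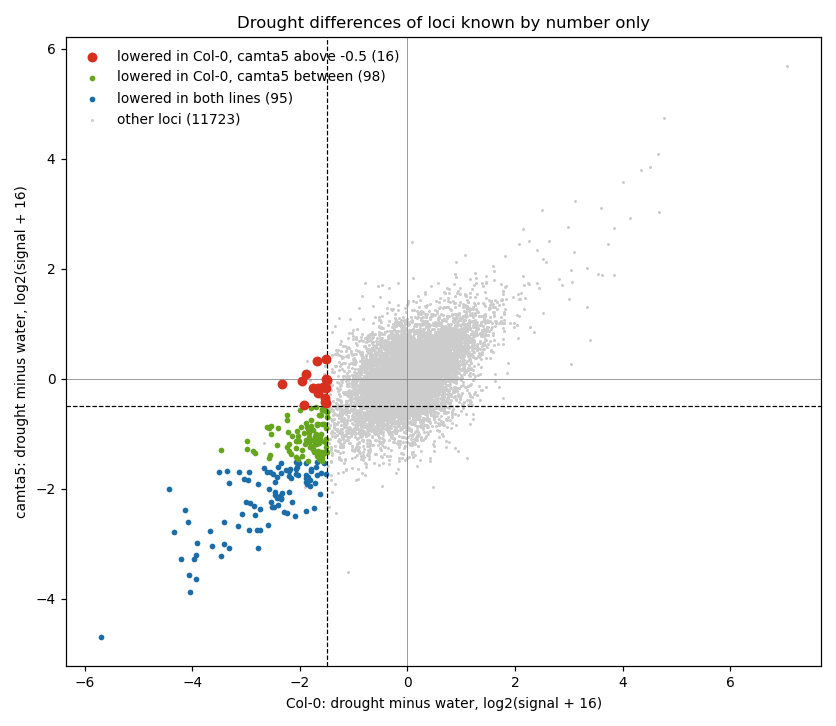
Drought minus water in Col-0 (x axis) and in camta5 (y axis), in log2(signal + 16), for each number-only locus. Red points are the 16 loci, green and blue points the 98 and 95 loci with lower camta5 differences, grey points all others, and dashed lines mark -1.5 and -0.5. The 16 loci lie left of the -1.5 line and above the -0.5 line, several close to a line, with AT5G64120 farthest left at -2.32.

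The thresholds cut through closely spaced values. The 3 loci just inside the Col-0 threshold were AT3G45720 at -1.52, AT3G12170 at -1.51 and AT2G40020 at -1.501. Just outside were AT2G20050 at -1.46, AT1G10380 at -1.46 and AT1G31430 at -1.45. On the camta5 side AT5G26330 at -0.48, AT5G59080 at -0.44 and AT5G24210 at -0.42 were just inside, and AT1G43910 at -0.51, AT3G28960 at -0.54 and AT1G75300 at -0.55 just outside. A further 5 loci passed both mean thresholds, but their Col-0 arrays overlapped.

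In camta5 the drought differences of the 16 loci were -0.48 to 0.36, with a median of -0.15, and in Col-0 they were -2.32 to -1.501, with a median of -1.62. These values chose the loci and are given as a description. Over all 15646 probe sets that passed a filter on low values the medians were 0.04 in camta5 and 0.08 in Col-0. In camta5 every drought array lay below every water array at 2 of the 16, AT5G59080 and AT2G20142 (16.7% of all probe sets tested), and above at 0 (19.9%). In Col-0 every drought array lay below every water array at all 16 loci, as the rule required, and at 19% of all probe sets. In the 95 loci lowered in both lines the medians were -2.05 in camta5 and -2.46 in Col-0.

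The size of the fall differed between the 3 droughted Col-0 arrays. Col-0 drought replicate 1 had the highest signal of its group at 12 of the 16 loci, and replicate 2 the lowest at 11. In camta5, against the mean of its watered arrays, the median over the 16 loci was 0.04 on drought replicate 1, -0.47 on replicate 2 and -0.28 on replicate 3. In Col-0, against its own watered arrays, the median over the 16 loci was -1.01 on replicate 1, -2.24 on replicate 2 and -1.72 on replicate 3. On replicate 1 only 8 of the 16 loci lay more than 1 below the watered mean, against 16 on each of the other two.

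The Col-0 drought arrays also disagreed more at these loci than at others. The median SD of log2 values within a group over the 16 loci was 0.22 in OX5 drought, 0.44 in camta5 drought, 0.32 in camta5 water, 0.76 in Col-0 drought and 0.29 in Col-0 water. Over all probe sets that passed the filter it was 0.22, 0.27, 0.22, 0.25 and 0.23 in the same order of groups. The 16 loci were chosen partly on the Col-0 drought arrays, and several had very low signals there. The part of that choice and of low signal in the larger spread was not tested. The ratio of the 3' to the 5' actin control probe set, which grows as RNA is shorter or labelling less complete, was 13.1 and 23.7 in OX5 drought, 24.5 to 29.3 in camta5 drought, 20.9 to 29.0 in camta5 water, 29.6 to 35.7 in Col-0 drought and 21.8 to 33.0 in Col-0 water. That of GAPDH was 2.27 and 2.48, 2.43 to 3.26, 2.11 to 3.23, 2.76 to 3.77 and 2.81 to 3.43 in the same order. The actin ratio was thus higher on every Col-0 drought array than on every camta5 or OX5 drought array, and its part in the results was not tested.

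**Figure D2:**
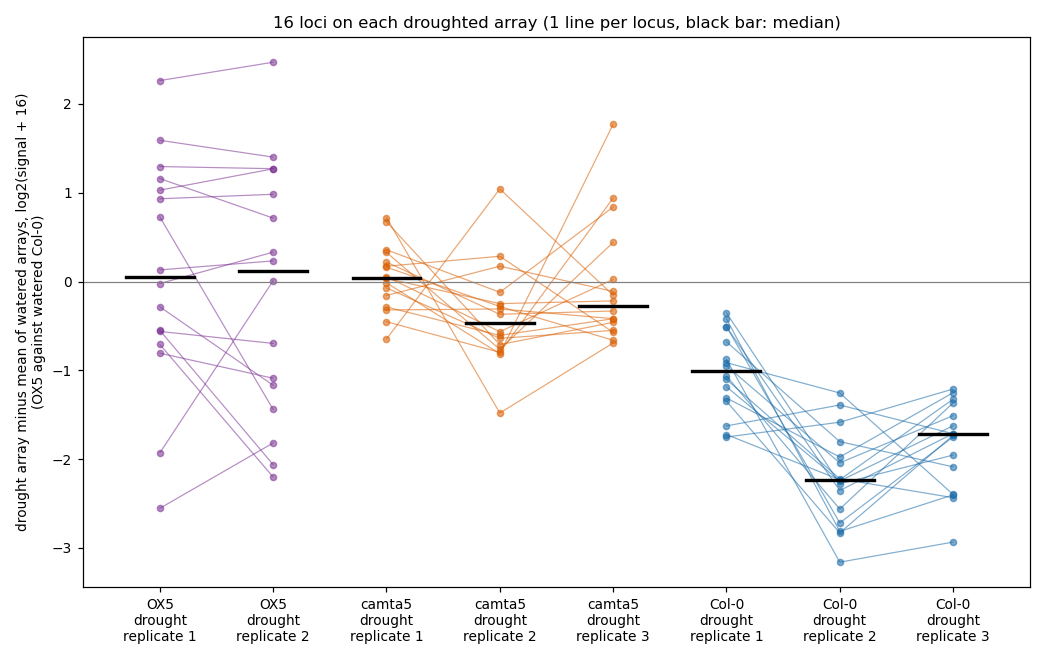
Each point is 1 of the 16 loci on 1 droughted array, as the log2(signal + 16) difference from the mean of the watered arrays of its line (OX5 against watered Col-0, y axis). Lines join a locus across replicates and black bars are medians. The OX5 loci spread from -2.55 to 2.47, the camta5 medians are 0.04, -0.47 and -0.28 and the Col-0 medians -1.01, -2.24 and -1.72.

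The choice of loci depended on single arrays. Applied without Col-0 drought replicate 2 the rule took 24 loci, with 6 of the 16 among them, and without Col-0 drought replicate 1 it took 51, with 15 of the 16. Without Col-0 water replicate 3 it took 48, with 10 of the 16, and without Col-0 water replicate 1 it took 34, with 13. Without camta5 drought replicate 2 it took 27, with all 16, and without Col-0 drought replicate 3 it took 25, with 11. AT1G32090 and AT2G31730 were the only loci of the 16 chosen whichever of the 14 arrays was left out. Without camta5 water replicate 1, the array with conflicting labels, all 16 were chosen among 20, and the camta5 differences of AT3G45720 and AT3G12170 were -0.04 and -0.39 in place of 0.36 and 0.00. With that array counted as Col-0 water the rule took 18 loci, with 12 of the 16.

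OX5 was not used by the rule. Its droughted arrays fell into several patterns at these loci, which group the account below. Both OX5 arrays lay above every Col-0 array, drought and water, at 6 of the 16 loci (24.9% of all probe sets tested), and above every Col-0 drought array at 8 (30.6%). Both lay below every Col-0 water array at 6 (32.2%). At the remaining 2, AT3G45720 and AT3G12170, the 2 OX5 arrays were far apart. OX5 differed from Col-0 at so many probe sets that these counts stand near or somewhat above that background. The rule picked low Col-0 drought arrays and high Col-0 water arrays. That can raise the counts set against either Col-0 group alone, so nothing is read from them.

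**Figure D3:**
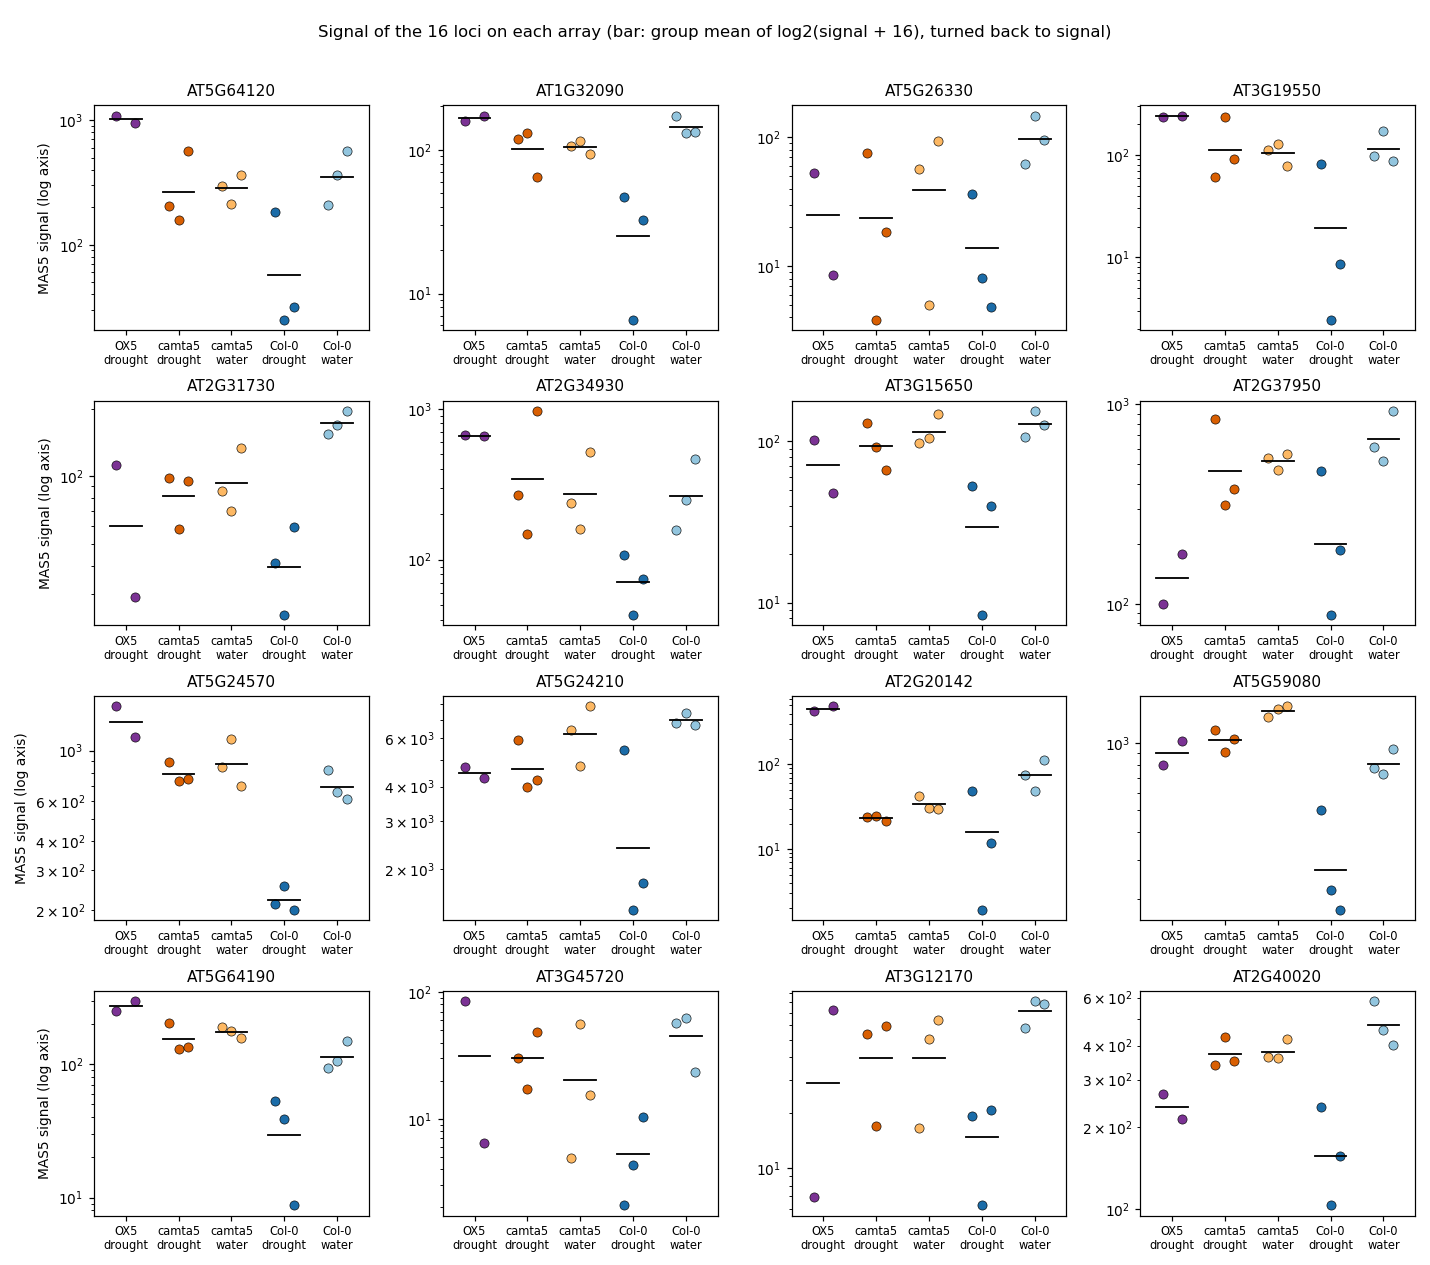
MAS5 signal on each array (log y axis) for the 16 loci, with arrays grouped as OX5 drought, camta5 drought, camta5 water, Col-0 drought and Col-0 water and a bar at the mean of log2(signal + 16). The dark blue Col-0 drought points have the lowest group mean at 15 of the 16 loci, and at AT2G37950 OX5 is lower.

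AT5G64120 (PRX71) had the largest Col-0 difference. Its signal was 1087 and 952 in OX5 drought, 204.5, 158 and 563 in camta5 drought, 299, 213 and 365 in camta5 water, 184, 24.99 and 31.9 in Col-0 drought and 208, 363 and 564 in Col-0 water. Both OX5 arrays were above all others, and 1 Col-0 drought array, replicate 1, came close to the lowest watered array. AT2G34930 ran much like it, with 670 and 658 in OX5 drought, 270, 148 and 968 in camta5 drought, 239, 160 and 520 in camta5 water, 107, 42.9 and 74.6 in Col-0 drought and 158, 247 and 461 in Col-0 water. At both loci replicate 3 was the highest array in camta5 drought, camta5 water and Col-0 water. For AT5G64120 the drought difference was -0.10 in camta5 and -2.32 in Col-0, and for AT2G34930 it was 0.31 in camta5 and -1.69 in Col-0.

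AT5G24570 had the closest Col-0 drought arrays of the 16 loci on the log2 scale. It was at 1565 and 1145 in OX5 drought, 894, 732 and 748 in camta5 drought, 845, 1119 and 703 in camta5 water, 213, 254 and 200 in Col-0 drought and 822, 658 and 612 in Col-0 water. The Col-0 drought mean was 222 ± 28.2 against 698 ± 111 with water (SD, n = 3 each), and no other droughted group came near it. AT5G64190 was at 250 and 298 in OX5 drought, 205, 131 and 135 in camta5 drought, 190, 178 and 157 in camta5 water, 53.1, 38.6 and 8.72 in Col-0 drought and 93.3, 106 and 150 in Col-0 water. Here all 3 watered camta5 arrays already exceeded the watered Col-0 arrays.

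AT3G19550 and AT2G20142 were the dimmer loci at which OX5 exceeded every Col-0 array. AT3G19550 was at 232 and 240.5 in OX5 drought, 60.6, 231 and 91.9 in camta5 drought, 112, 127 and 78.5 in camta5 water, 81.05, 2.47 and 8.55 in Col-0 drought and 96.3, 172 and 87.6 in Col-0 water. Its low Col-0 mean came from replicates 2 and 3, and replicate 1 was only just under the watered range. AT2G20142 was at 423 and 490 in OX5 drought, 24.0, 24.3 and 21.4 in camta5 drought, 42.3, 30.6 and 30.0 in camta5 water, 48.2, 1.89 and 11.9 in Col-0 drought and 75.4, 48.6 and 114 in Col-0 water. Here too the low Col-0 mean came from replicates 2 and 3, and replicate 1, at 48.2, was only just under the lowest watered array at 48.6. The camta5 arrays of AT2G20142 were lower after drought than with water without overlap. All its watered camta5 arrays lay below all watered Col-0 arrays. The droughted camta5 arrays lay within the range of the droughted Col-0 arrays, and OX5 was far above both.

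At 2 loci OX5 lay above the droughted Col-0 arrays and in or near the watered range. AT5G59080 was at 797 and 1023 in OX5 drought, 1143, 913 and 1041 in camta5 drought, 1306, 1428 and 1466 in camta5 water, 500, 221 and 178 in Col-0 drought and 773, 730 and 942 in Col-0 water. Every camta5 array was above every Col-0 array of the same treatment, and its drought difference in camta5 was -0.44, near the edge of the rule. AT1G32090 was at 160 and 173 in OX5 drought, 120, 131 and 65.0 in camta5 drought, 106, 115 and 93.6 in camta5 water, 47.0, 6.56 and 32.3 in Col-0 drought and 173, 132 and 132.5 in Col-0 water. With water camta5 was lower than Col-0 on every array, and the camta5 signal hardly differed between treatments.

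At 6 loci both OX5 arrays were below every watered Col-0 array. AT5G24210, the brightest of the 16, was at 4707 and 4286 in OX5 drought, 5901, 3976 and 4232 in camta5 drought, 6432, 4737 and 7843 in camta5 water, 5444, 1422 and 1783 in Col-0 drought and 6814, 7398 and 6683 in Col-0 water. Its Col-0 drought replicate 1 lay within the camta5 and above the OX5 values, so the fall rested on replicates 2 and 3. AT2G37950 was at 100 and 178 in OX5 drought, 842, 313 and 376 in camta5 drought, 540, 468 and 565 in camta5 water, 465, 87.8 and 187 in Col-0 drought and 612, 522 and 929 in Col-0 water. It was the only locus of the 16 whose OX5 mean was below the Col-0 drought mean, and both OX5 arrays were below every camta5 array.

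AT2G40020 was at 265 and 215 in OX5 drought, 339, 430 and 351 in camta5 drought, 362, 359 and 422 in camta5 water, 239, 103 and 157 in Col-0 drought and 582, 458 and 404 in Col-0 water. The camta5 arrays of both treatments held one level, between the Col-0 groups apart from 2 arrays within the watered Col-0 range. AT2G31730 was at 113 and 29.0 in OX5 drought, 97.7, 58.05 and 95.3 in camta5 drought, 86.3, 69.7 and 134 in camta5 water, 41.0, 24.1 and 59.2 in Col-0 drought and 154, 169 and 195 in Col-0 water. Its camta5 arrays were below every watered Col-0 array in both treatments, so the small camta5 difference started from a lower watered level. AT3G15650 was at 102 and 48.1 in OX5 drought, 131, 91.97 and 67.0 in camta5 drought, 98.5, 105 and 147 in camta5 water, 52.8, 8.38 and 39.8 in Col-0 drought and 106, 155 and 127 in Col-0 water. Its camta5 arrays of both treatments overlapped, and every droughted camta5 array was above every droughted Col-0 array.

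At 3 dim loci the replicates of camta5 and OX5 lay far apart. AT5G26330 is the sixth of the loci at which OX5 was below watered Col-0. AT5G26330 was at 52.9 and 8.47 in OX5 drought, 75.2, 3.82 and 18.3 in camta5 drought, 57.1, 5.01 and 94.4 in camta5 water, 36.4, 8.13 and 4.83 in Col-0 drought and 61.7, 148 and 96.2 in Col-0 water. AT3G12170 was at 6.97 and 72.1 in OX5 drought, 53.9, 16.8 and 59.6 in camta5 drought, 16.5, 50.5 and 63.9 in camta5 water, 19.3, 6.25 and 20.7 in Col-0 drought and 57.6, 80.8 and 78.2 in Col-0 water. AT3G45720 was at 84.6 and 6.41 in OX5 drought, 30.4, 17.3 and 48.7 in camta5 drought, 4.89, 56.3 and 15.5 in camta5 water, 2.07, 4.28 and 10.3 in Col-0 drought and 56.6, 62.6 and 23.5 in Col-0 water. Within camta5 the highest signal of each exceeded the lowest by several fold within at least 1 treatment, so that a small mean difference there is an average of widely scattered signals. The array's 40th percentile, used as a filter, was exceeded on 4 arrays by AT5G26330, on 2 by AT3G12170 and on 0 by AT3G45720, which was therefore not tested. For AT3G12170 these were Col-0 water replicates 2 and 3. It thus passed the filter only through a group that the rule picks for being high.

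A comparison of OX5 with a Col-0 group alone would set it against arrays that the rule picked for being low or high. OX5 was therefore tested against the midpoint of the Col-0 drought and water means, which is independent of their difference as long as both groups have like spread. That condition was not met at these loci, where Col-0 drought had the larger spread, so arrays picked for low drought signals can also lower the midpoint. The p-values below are those of the fit, and this choice of arrays can make them too small for loci called higher, by an amount that was not measured. A positive value places OX5 on the watered side. OX5 was higher than the midpoint at 8 of the 15 loci tested (26.3% of all probe sets) and lower at 1 (27.1%) in limma with Benjamini-Hochberg adjustment over 15646 probe sets. Among the 8, at AT1G32090 and AT5G59080 the OX5 mean lay only 0.18 and 0.15 above the Col-0 water mean. Most of their distance from the midpoint is thus the Col-0 difference that the rule chose. Leaving out arrays, as below, does not remove that choice.

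The largest was AT2G20142 at 3.13 ± 0.42 (SE, adjusted p = 2.66e-05 in limma), followed by AT5G64120 (PRX71) at 2.66 ± 0.55 (adjusted p = 0.000903) and AT2G34930 at 2.13 ± 0.56 (adjusted p = 0.00537). AT5G64190 was at 1.91 ± 0.33 (adjusted p = 0.000251) and AT5G24570 at 1.72 ± 0.20 (adjusted p = 5.41e-06). At these 5 loci the call held whichever array was left out. The calls of AT3G19550 (1.90 ± 0.54, adjusted p = 0.00839) and AT1G32090 (1.17 ± 0.35, adjusted p = 0.0116) ended without either OX5 array, with adjusted p of 0.0514 to 0.0677. That of AT5G59080 (0.92 ± 0.27, adjusted p = 0.011) ended without OX5 drought replicate 2 (0.74, adjusted p = 0.118). In such fits the lone OX5 array was assumed to vary like the other groups.

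AT2G37950 was lower in OX5 than the midpoint, by -1.36 ± 0.46 (adjusted p = 0.0217 in limma), and this call ended without OX5 drought replicate 1 (-0.99, adjusted p = 0.212). The other 6 loci had values of -0.50 to 0.13 and no call with all arrays. AT2G31730, at -0.43, was called lower without OX5 drought replicate 1 (-1.18, adjusted p = 0.0314), since its OX5 arrays were at 113 and 29.0. Over the 15 tested loci the median was 0.92, and over all probe sets it was 0.01. Of the 95 loci lowered in both lines 23 were higher and 27 lower than the midpoint, with a median of -0.15, and of 93 tested loci with a camta5 difference between the thresholds 26 were higher and 22 lower, with a median of -0.03. These counts stand side by side, and the difference between the sets was not tested.

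**Figure D4:**
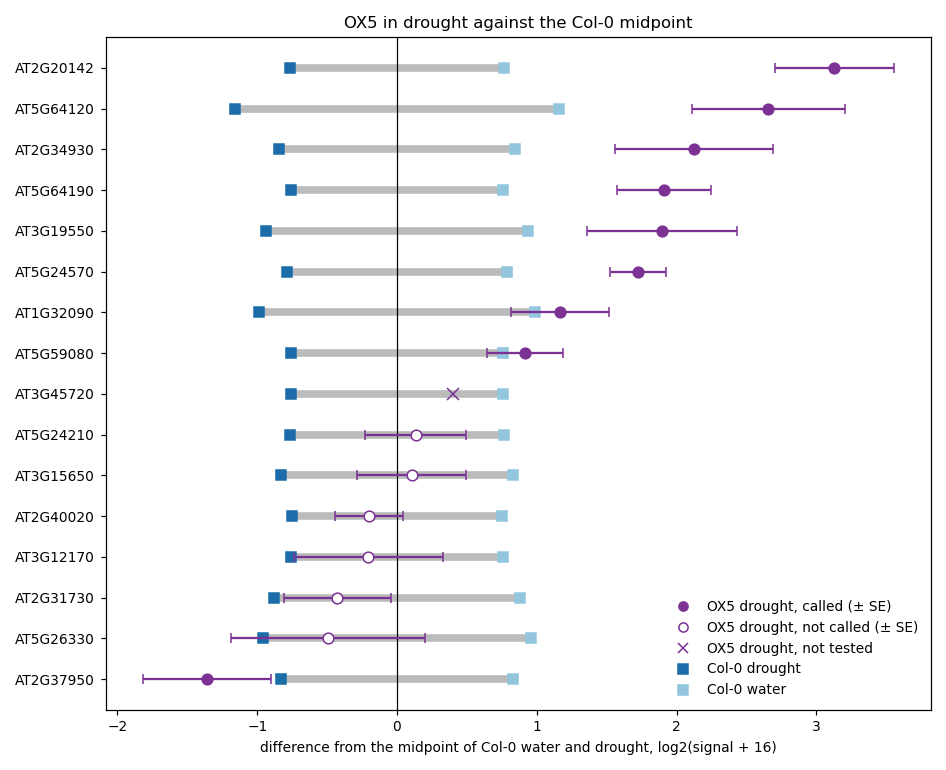
OX5 in drought (purple circles, ± SE from limma, filled where called) against the midpoint of the Col-0 means, in log2(signal + 16), with the Col-0 drought and water means as dark and light blue squares. AT2G20142 at 3.13 and 5 more loci lie beyond the watered Col-0 mean by more than the SE, while AT2G37950 at -1.36 lies beyond the drought mean. AT3G45720 was not tested and has a cross.

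Given without a test, since the droughted arrays were used by the rule, OX5 minus Col-0 in drought was above 0 at 15 of the 16 loci, from -0.53 (AT2G37950) to 3.89 (AT2G20142), with a median of 1.42. Among the 95 loci lowered in both lines that median was 1.16, with 70 above 0. Against camta5 in drought the OX5 median over the 16 was 0.04, with a range of -1.68 to 3.59. Both OX5 arrays were above every droughted camta5 array at 6 loci (29.9% of all probe sets), which were AT5G64120, AT1G32090, AT5G64190, AT5G24570, AT3G19550 and AT2G20142. Both were below at 2 (29.8%), AT2G37950 and AT2G40020.

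The genotypes were also set side by side over both treatments, as the mean of camta5 in drought and with water minus the same mean of Col-0. The rule used all 4 of these groups, and the low Col-0 drought arrays that it picked lower the Col-0 mean. These values are therefore a description, with no test, and nothing is read from the counts. In the limma fit 3 of the 15 loci passed the threshold as higher in camta5 (1.3% of all probe sets) and 0 as lower (0.53%).

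The pooled difference was 1.32 ± 0.19 (SE from limma) at AT5G59080, 1.04 ± 0.14 at AT5G24570 and 1.23 ± 0.24 at AT5G64190. Their watered arrays alone differed by 0.78 at AT5G59080, 0.33 at AT5G24570 and 0.55 at AT5G64190. Every watered camta5 array lay above every watered Col-0 array at AT5G59080 and AT5G64190, 2 of the 16 loci (7.87% of all probe sets). The pooled difference of AT5G64190 was 1.01 to 1.38 when 1 array was left out, and 1.12 with camta5 water replicate 1 counted as Col-0.

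**Figure D5:**
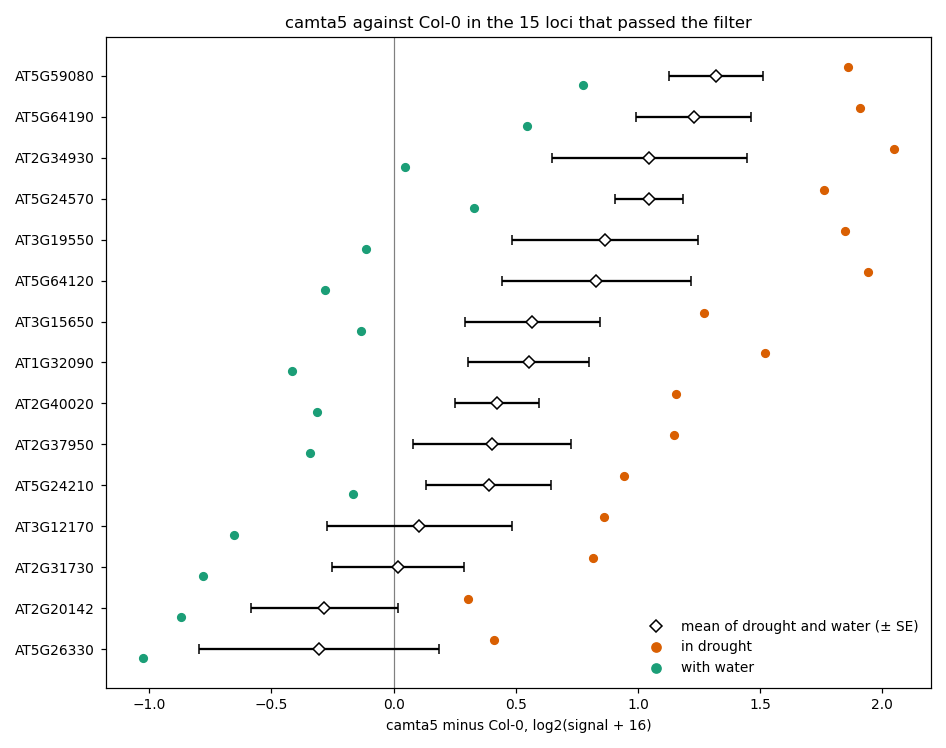
camta5 minus Col-0 in log2(signal + 16) for the 15 loci that passed the filter, in drought (orange), with water (green) and as the mean of both (diamonds ± SE from limma), as a description. The 3 highest diamonds are AT5G59080 at 1.32, AT5G64190 at 1.23 and AT2G34930 at 1.05, and most green points lie below 0.

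The other 12 loci had pooled differences of -0.31 to 1.05, the highest at AT2G34930 with an SE of 0.40. Without Col-0 drought replicate 1 the pooled difference was 1.23 in place of 0.87 at AT3G19550. It was 1.19 in place of 0.83 at AT5G64120 and 0.68 in place of 0.39 at AT5G24210. The median of the 15 was 0.55, against 0.10 in the 95 loci lowered in both lines and -0.01 over all probe sets. The low Col-0 drought arrays that the rule picked can raise the value of the 15, and the sets were not compared by a test.

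Split by treatment, and given without a test, camta5 minus Col-0 had a median of 1.21 in drought, with all 16 loci above 0 and a range of 0.30 to 2.05. With water it had a median of -0.30, with 4 of 16 above 0 and a range of -1.02 to 0.78. Every droughted camta5 array lay above every droughted Col-0 array at 8 of the 16 loci (7.77% of all probe sets), a count that the rule itself raises. Every watered camta5 array lay below every watered Col-0 array at 3 (7.38%), AT1G32090, AT2G31730 and AT2G20142. The rule also favours loci with high watered Col-0 arrays, which can raise this count and lower the watered differences. At AT2G31730 and AT2G20142 camta5 minus Col-0 was -0.78 and -0.87 with water, and its small drought difference was measured on a lower watered level, and in drought it was 0.82 and 0.30 above Col-0. At AT5G59080 camta5 was above Col-0 in both treatments.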

How the data were processed

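The submitters' processing notes name MAS5 in Affymetrix Expression Console, with no version, as the way in which the authors made the deposited intensity values, which are linear signals. The values themselves show a scaling to a mean of 500 on every array after trimming 2% at both ends. Detection calls were not used here. Gene names came from the platform annotation, with symbols updated through a RefSeq table of assembly TAIR10.1, from which no coordinates are printed. Of 22810 probe sets 13513 named 1 gene, and 11933 of these had only a locus number.

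The loci, the lists and the tests were chosen with earlier results of these data known. Values were taken as log2(value + 16), which understates changes of low signals. The 64 controls were left out, and testing required a signal over the 40th percentile of the array on 2 or more arrays, which kept 15646 probe sets and 15 of the 16 loci. All 14 arrays entered 1 limma fit (limma 3.58.1, R 4.3.3) with a mean per group, no covariates and moderation with trend. Tests were two-sided, with calls at a Benjamini-Hochberg adjusted p under 0.05. The procedure was tested on simulated data. Loci were named by their rank in either drought difference, by their calls and by their place at the thresholds; with 16 loci, all are given. Product classes and promoter motifs were not examined, since the tables given hold no descriptions or sequences. The number of arrays limits the precision. Alternatives were other offsets, filters, scalings, moderation, array weights, thresholds, arrays and groupings.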

Additional observations from a re-analysis of the deposited data

How the results depend on the processing

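The number of loci that the rule took was 16 as reported, 14 to 51 when 1 array was left out, 153 with an offset of 1 and 3 with an offset of 64. It was 55 with the Col-0 threshold 0.25 nearer to 0 and 5 with it 0.25 farther from 0, and 30 with a camta5 threshold of -0.75. The median of OX5 minus Col-0 in drought was 1.42 as reported, 1.94 with an offset of 1, and 1.33 to 1.80 when 1 array was left out.

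For OX5 against the Col-0 midpoint, the 8 loci called higher were 5 with a filter at the 60th percentile, where only 8 of the 15 loci were tested, and 5 to 8 when 1 array was left out. The 1 called lower was 0 at an adjusted p under 0.01. Over all probe sets 4110 were higher and 4247 lower, 2492 and 2557 with a log2 difference of 1 or more as well. Centring on the array median gave a median of -0.14 over all probe sets in place of 0.01, with 8 loci higher and 1 lower as before. For camta5 against Col-0 over both treatments, where the rule used the same arrays, the 3 loci past the threshold were 2 to 6 when 1 array was left out. Over all probe sets 204 were higher and 83 lower. These counts were 68 and 19 at an adjusted p under 0.01, 79 and 31 with a log2 difference of 1 or more, 124 and 51 without trend, 359 and 240 with array weights, 35 and 8 with camta5 water replicate 1 counted as Col-0, and 97 to 311 and 29 to 172 when 1 array was left out.

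Signs turned only at loci without a call in the setting with all arrays. For the pooled genotype difference, AT2G31730 was at 0.02, against -0.044 with an offset of 64, -0.0026 after quantile normalization, -0.083 with array weights and -0.10 to 0.13 leaving out 1 array. AT3G12170 was at -0.025 to 0.30 and AT5G26330 at -0.61 to 0.043 leaving out 1 array. For OX5 against the midpoint, AT3G15650 was at -0.39 after quantile normalization, -0.042 after centring and -0.34 to 0.55 leaving out 1 array, and AT5G24210 at -0.013 after centring and -0.053 to 0.43. AT3G12170 was at -1.17 to 0.77, AT5G26330 at -1.24 to 0.25 and AT2G31730 at -1.18 to 0.33 leaving out 1 array. The causes were not tested.

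Of 26 pairs of same-numbered arrays, 3 had a correlation of deviations over 0.1 (-0.16 to 0.24). The highest were Col-0 drought with camta5 drought, at 0.23 on replicate 1 and 0.24 on replicate 2, while replicate 3 gave -0.16. Among the chosen loci, replicate 1 had the highest signal of its group at 12 in Col-0 drought and 8 in camta5 drought. Replicate 2 had the lowest at 11 in each. Pairs with unlike numbers were not set beside these, and whether same-numbered arrays shared more than a number was not tested. With the replicate number as a block, 8 loci were higher and 1 lower than the midpoint. Over all probe sets 3900 were then higher and 4091 lower than the midpoint, and 187 higher and 77 lower in camta5 than in Col-0.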
